A study of Mus musculus with 18 samples.

Results

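The mitochondrial respiratory chain was described here through 85 nuclear genes that encode its subunits and a few of their assembly factors. They were chosen by name, with earlier results of these data known, as the protein-coding genes whose symbol begins with Nduf, Uqcr, Cox4, Cox5, Cox6, Cox7, Cox8 or Atp5, together with Sdha, Sdhb, Sdhc, Sdhd and Cyc1. Cox7a1 and Cox8b were kept with the brown adipocyte markers and left out. The 85 genes stand among 15194 genes found in the comparison tables. Complex I contributed 41 genes, of which 6 are core subunits, 28 accessory subunits and 7 assembly factors named Ndufaf. Complex II contributed 4 genes, complex III 9, complex IV 16 and complex V 15. Ndufa4 and its paralog Ndufa4l2 carry complex I names but were counted with complex IV, where Ndufa4 is now placed.

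Complexes I and II pass electrons from NADH and succinate to ubiquinone, complex III passes them on to cytochrome c, and complex IV delivers them to oxygen. Complexes I, III and IV pump protons across the inner mitochondrial membrane, and complex V, the ATP synthase, lets the protons flow back to make ATP. Most subunits are nuclear genes whose proteins are imported, while a small set of core subunits is encoded in mitochondrial DNA. Mitochondrial mass and respiratory subunits are known to increase when preadipocytes become adipocytes.

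RNA was sequenced from 3T3-L1, a mouse fibroblast line that turns into fat cells in culture, and all samples are labelled untreated. The 6 groups of 3 libraries were differentiated MLKL-/- cells (J7_MLKL), differentiated RIPK3-/- cells (J7_RIPK3), differentiated control cells (J7_CTL), and the undifferentiated preadipocytes of the 3 genotypes (J0_MLKL, J0_RIPK3 and J0_CTL). RIPK3 is the kinase of the necroptosis pathway and MLKL the pseudokinase it activates. How the knockouts were made, and whether each line is 1 clone or a pool, is not given in the sources used here. Whether replicate libraries came from separate cultures is not stated either, and p-values here reflect only library-to-library spread, which may be technical. Groups follow the sample titles. The genotype label disagrees with the title in the 6 differentiated knockout samples, where MLKL-/- and RIPK3-/- are exchanged. Under that reading the J7_MLKL libraries would be RIPK3-/- cells and the J7_RIPK3 libraries MLKL-/- cells, and each would be compared with the J0 group of the other name.

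Library totals were 20.2 to 36.9 M reads. Mlkl had 13.9, 16.4 and 15.0 CPM (reads of a gene scaled to the library total) in J7_MLKL, 7.24, 9.72 and 7.19 CPM in J0_MLKL, 26.5 to 32.3 CPM in J7_RIPK3, 14.5 to 17.7 CPM in J0_RIPK3, 25.4 to 27.5 CPM in J7_CTL and 18.2 to 19.8 CPM in J0_CTL. Ripk3 had 10.2, 10.8 and 11.7 CPM in J7_RIPK3, 14.7, 17.3 and 15.8 CPM in J0_RIPK3, 7.73, 7.97 and 11.99 CPM in J7_MLKL, 5.73, 9.44 and 7.19 CPM in J0_MLKL, 17.5 to 19.2 CPM in J7_CTL and 16.8 to 19.6 CPM in J0_CTL. Mlkl was thus below every control library of its stage in both MLKL groups and also in J0_RIPK3, and Ripk3 was below every control library of its stage in J7_RIPK3, J7_MLKL and J0_MLKL, while J0_RIPK3 overlapped J0_CTL. The sum of 8 adipocyte markers, among them Adipoq, Fabp4 and Plin1, was 3605 to 5159 CPM in J7_MLKL, 23879 to 25822 CPM in J7_RIPK3 and 21529 to 22635 CPM in J7_CTL. In undifferentiated cells that sum was 387 to 496 CPM in J0_MLKL, 314 to 323 CPM in J0_RIPK3 and 274 to 279 CPM in J0_CTL, with 3, 1 and 1 of the 8 genes at 0 reads. The preadipocyte and fibroblast markers summed to 4746 to 5649 CPM in J7_MLKL (6 of 7 genes with counts), against 776 to 785 CPM in J7_RIPK3 and 933 to 947 CPM in J7_CTL (7 genes). The J7_MLKL cells thus held high levels of the preadipocyte markers beside low levels of the adipocyte markers. In bulk RNA, fewer differentiated cells and less of an mRNA per cell cannot be told apart, and this holds for every level given here.

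The deposited tables list a gene only where the authors called it in that comparison. A member therefore had counts in J7_CTL for 83 of 85 genes, in J7_RIPK3 for 83, in J0_CTL for 84 and in J0_RIPK3 for 84, but in J7_MLKL for 29 and in J0_MLKL for 6. Ndufaf4 and Ndufa4l2 had counts in all 18 libraries. The members seen in MLKL-/- cells entered because they differed in some MLKL table, so their counts and medians describe the listed genes and give no support for a general shift. A pair of libraries stood apart from the others of their groups. In J7_MLKL 3 the level over the mean of J7_MLKL 1 and 2 had a median of 1.84 over the 29 members, and over all genes it ranged from 1.84 for transcripts of up to 800 bases to 0.633 for those over 6000 bases. In J0_MLKL 2 the same ratio ran from 1.31 to 0.769 over all genes, while in J7_CTL 3 it stayed at 0.992 to 1.00. Library J7_RIPK3 3 had a smaller trend the other way, from 0.918 for transcripts of up to 800 bases to 1.00 for those over 6000 bases, and a median of 0.912 over 83 members. The members named in MLKL-/- comparisons are given with and without J7_MLKL 3 or J0_MLKL 2.

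**Figure D1:**
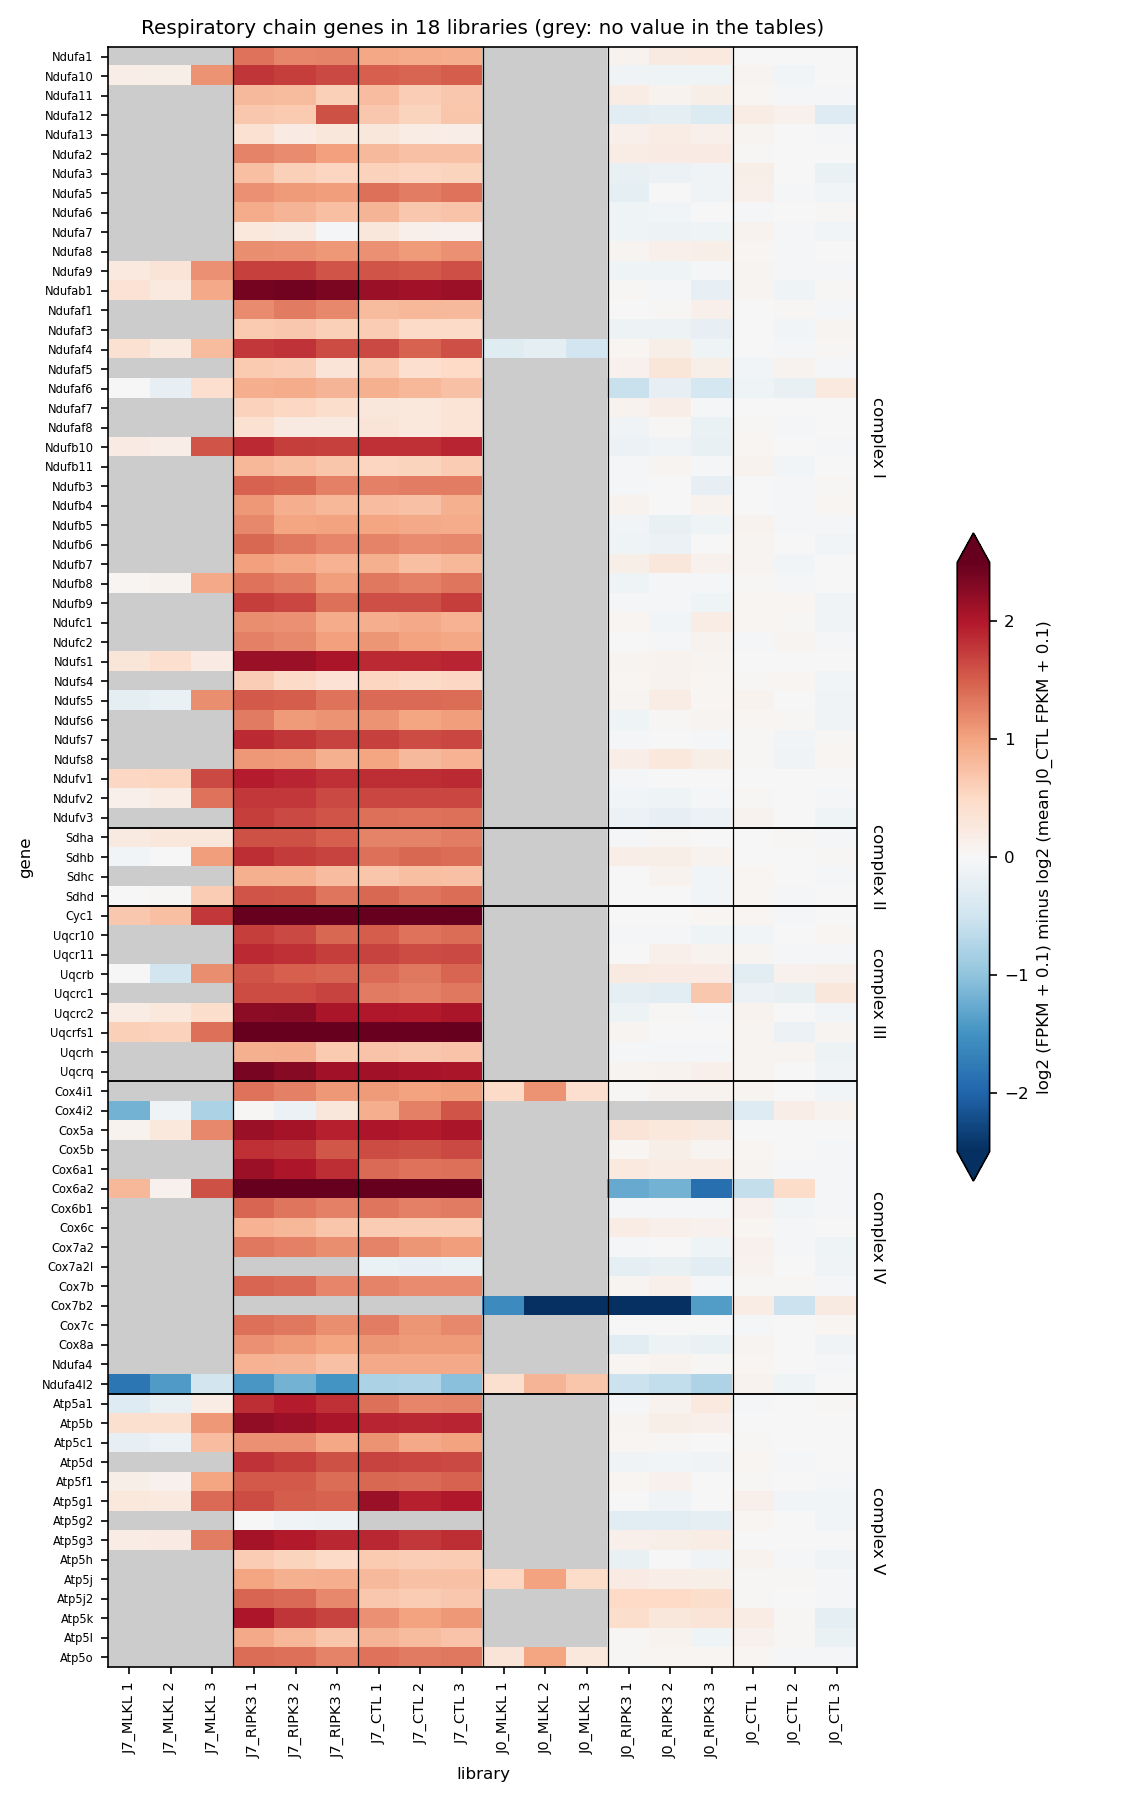
Levels of 83 respiratory chain genes in 18 libraries, as log2(FPKM + 0.1) minus the same value of the J0_CTL mean, with genes in rows by complex and libraries in columns from J7_MLKL to J0_CTL. Grey cells have no count in the tables. J7_RIPK3 and J7_CTL are above the J0 groups in nearly all rows, and the 28 rows with J7_MLKL values are paler there, most of all in libraries 1 and 2.

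Differentiated control cells held more respiratory chain mRNA than undifferentiated control cells, in all 5 complexes. Of 82 members tested in J7_CTL against J0_CTL, 80 rose and 2 fell, while 48.2% of all 12055 genes tested rose and 47.6% fell (edgeR's quasi-likelihood test, Benjamini-Hochberg adjusted over all genes tested, called at an adjusted p under 0.05). The authors had listed 82 members in this comparison, 80 higher and 2 lower. Of all genes tested 95.9% were called, so both shares come from preselected genes. The median log2 fold change was 1.16 over the members and 0.03 over all genes tested. The 80 members with counts in every CTL and RIPK3 group took 1.66 ± 0.0286% of the reads in J7_CTL and 0.647 ± 0.0175% in J0_CTL (SD, n = 3 each). Summed per complex, the CPM of J7_CTL over J0_CTL had a ratio of 3.60 for complex III, 2.94 for complex V, 2.31 for complex I, 2.27 for complex II and 2.26 for complex IV.

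The steepest rises were in complex III, which hands electrons to cytochrome c. All 9 of its genes rose, with a median log2 fold change of 1.61. Cyc1, which encodes cytochrome c1, had 173, 168 and 168 FPKM (reads scaled by gene length and library total, as the authors give them) in J7_CTL, against 29.8, 28.0 and 28.8 FPKM in J0_CTL. Uqcrfs1, the Rieske iron-sulfur protein, had 232, 231 and 235 FPKM in J7_CTL, against 43.6, 37.7 and 43.5 FPKM in J0_CTL. The groups did not overlap for either gene. The log2 fold change was 2.51 ± 0.03 (SE, adjusted p = 6.13e-27) for Cyc1 and 2.44 ± 0.04 (adjusted p = 4.64e-25) for Uqcrfs1. The core proteins Uqcrc2 and Uqcrc1 rose by 1.96 ± 0.04 and 1.34 ± 0.12 on the log2 scale, and the smallest change of the complex was 0.65, for Uqcrh. Uqcrc1 was listed at 2.77, 2.67 and 2.81 FPKM in J7_CTL, the lowest level of the complex, while Uqcrc2 had 116, 114 and 118 FPKM there.

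All 41 complex I genes rose as well, but over a wide range that followed their roles in part. The 6 core subunits had a median log2 fold change of 1.63, the 28 accessory subunits 0.95 and the 7 assembly factors 0.50. Ndufs1, the large iron-sulfur core subunit, had 38.8, 38.9 and 39.8 FPKM in J7_CTL, against 10.7, 10.5 and 10.6 FPKM in J0_CTL. Ndufv1, the subunit that binds NADH, had 149, 149 and 150 FPKM in J7_CTL, against 41.6, 40.9 and 41.2 FPKM in J0_CTL. Replicates of both genes lay close together and the groups were far apart, with log2 fold changes of 1.84 ± 0.03 (adjusted p = 7.23e-25) and 1.81 ± 0.03 (adjusted p = 6.85e-25). The highest change of the complex was in an accessory subunit, Ndufab1, the mitochondrial acyl carrier protein, at 2.11 ± 0.04 (adjusted p = 8.29e-24).

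At the other end of complex I, Ndufa7 had 68.6, 60.8 and 60.0 FPKM in J7_CTL, against 59.9, 55.0 and 53.3 FPKM in J0_CTL. The groups lay side by side with no overlap, the log2 fold change was 0.12 ± 0.05 (adjusted p = 0.0137), and the call was lost without J7_CTL 1 or without J0_CTL 3. Ndufa13, also known as Grim19, followed with 0.17 ± 0.04 (adjusted p = 0.000222). Among the assembly factors, which help build complex I without staying in it, Ndufaf4 stood highest with 8.62, 7.58 and 8.34 FPKM in J7_CTL, against 2.66, 2.62 and 2.71 FPKM in J0_CTL, a log2 fold change of 1.57 ± 0.07 (adjusted p = 2.06e-16). The other 6 assembly factors changed by 0.26 (Ndufaf7) to 0.80 (Ndufaf6).

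Complex II, the succinate dehydrogenase that also works in the TCA cycle, rose in all 4 subunits with a median log2 fold change of 1.28. The flavoprotein Sdha had 115, 115 and 118 FPKM in J7_CTL, against 48.5, 49.1 and 47.7 FPKM in J0_CTL. The iron-sulfur subunit Sdhb had 75.4, 78.9 and 76.9 FPKM in J7_CTL, against 28.7, 28.7 and 29.6 FPKM in J0_CTL. Neither gene overlapped between groups, and the log2 fold changes were 1.22 ± 0.03 (adjusted p = 2.1e-21) and 1.37 ± 0.03 (adjusted p = 1.02e-21). Of the membrane anchors, Sdhd rose by 1.35 and Sdhc by 0.68.

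In complex V all 13 genes tested rose, with a median log2 fold change of 1.25. The 4 genes of the F1 part, where ATP is made, had a median of 1.44 and those of the membrane part and stalk 1.02. Atp5b, the catalytic beta subunit and the most abundant gene of the complex, had 563, 553 and 560 FPKM in J7_CTL, against 151, 149 and 148 FPKM in J0_CTL. Atp5a1, the alpha subunit, stood much lower with 12.2, 10.9 and 11.1 FPKM in J7_CTL, against 4.56, 4.68 and 4.76 FPKM in J0_CTL. The log2 fold change was 1.86 ± 0.03 (adjusted p = 3.73e-26) for Atp5b, 1.25 ± 0.06 (adjusted p = 3.56e-15) for Atp5a1 and 0.99 ± 0.04 (adjusted p = 4.64e-18) for Atp5c1, the gamma subunit of the rotor. The alpha and beta subunits are present in equal number in the enzyme, and their listed levels differed in every library. How reads that map to several places were counted is not given in the sources used here. Its part in the low listed levels of Atp5a1, and of Uqcrc1 above, was not tested.

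The c ring of complex V is made of a single mature protein encoded by Atp5g1, Atp5g2 and Atp5g3. Atp5g3 stood above Atp5g1 in J7_CTL with 309, 284 and 299 FPKM, against 83.7, 83.6 and 82.7 FPKM in J0_CTL. Atp5g1 had 30.96, 26.8 and 27.6 FPKM in J7_CTL, against 7.53, 6.49 and 6.52 FPKM in J0_CTL. Both rose, by 1.79 ± 0.03 (adjusted p = 3.84e-24) and 2.00 ± 0.05 (adjusted p = 4.39e-21) on the log2 scale. Atp5g2 had no J7_CTL value. Its levels in the RIPK3-/- pair were 72.8, 68.4 and 66.6 FPKM in J7_RIPK3, against 59.0, 60.3 and 61.5 FPKM in J0_RIPK3, with a log2 fold change of 0.17 ± 0.04 (adjusted p = 0.000429). Of the 3 genes for the same protein, Atp5g3 rose most in that pair, by 1.79 on the log2 scale, and Atp5g2 least. The share of Atp5g3 was thus larger, and that of Atp5g2 smaller, in J7_RIPK3 than in J0_RIPK3. Levels between the 3 genes depend on the length used. FPKM rests on listed lengths of 4912, 1675 and 2181 bases for Atp5g1, Atp5g2 and Atp5g3. Their median transcript lengths were 608.5, 742 and 800.5 bases, so the size of the gaps between them is uncertain.

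Complex IV held both the largest rise and the only falls. Of 15 genes tested, 13 rose and the median log2 fold change was 1.16. The common subunits lay in a band from 0.59 for Cox6c to 1.97 ± 0.04 for Cox5a (adjusted p = 3.02e-24), with Cox5b at 1.58 ± 0.03 (adjusted p = 4.5e-23) and Cox4i1 at 1.00 ± 0.03 (adjusted p = 5.91e-19). Cox4i1 had 423, 409 and 420 FPKM in J7_CTL, against 213, 200 and 194 FPKM in J0_CTL. Cox8a, the member with the highest FPKM in J7_CTL, had 995, 971 and 969 FPKM there, against 490, 465 and 439 FPKM in J0_CTL. Both sets of values were separate between the groups by more than the spread within them. By CPM, which is not scaled by gene length, Atp5b stood above Cox8a in J7_CTL. Atp5b had 2386, 2343 and 2373 CPM there, and Cox8a 542, 529 and 528 CPM.

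Several complex IV subunits exist as a common form and a form of certain tissues or conditions. Cox6a2, the heart and skeletal muscle form of subunit VIa, had 7.37, 7.94 and 6.42 FPKM in J7_CTL, against 0.338, 0.807 and 0.534 FPKM in J0_CTL. Cox6a1, its common counterpart, had 666, 637 and 646 FPKM in J7_CTL, against 261, 241 and 243 FPKM in J0_CTL. The log2 fold change was 3.66 ± 0.25 (adjusted p = 8.59e-13) for Cox6a2 and 1.34 ± 0.03 (adjusted p = 1.92e-21) for Cox6a1, so that Cox6a2 rose most of all members yet stayed far below Cox6a1. Of 5 skeletal muscle markers 1, Acta1, had counts, at 4.10 to 4.52 CPM in J7_CTL and 0.240 to 0.404 CPM in J0_CTL, and its part in the Cox6a2 level was not tested. Cox4i2, the form of subunit IV known from lung and hypoxia, had 1.16, 1.49 and 1.89 FPKM in J7_CTL, against 0.438, 0.653 and 0.615 FPKM in J0_CTL, a log2 fold change of 1.39 ± 0.32 (adjusted p = 0.000281).

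The 2 members that fell were Cox7a2l and Ndufa4l2. Cox7a2l, which helps join complex III and complex IV into supercomplexes, had 135, 131 and 135 FPKM in J7_CTL, against 161, 151 and 141 FPKM in J0_CTL. Its log2 fold change was -0.23 ± 0.04 (adjusted p = 4.73e-06), while that of its relative Cox7a2 was 1.08. Ndufa4l2, the paralog of Ndufa4 that is known to be induced in hypoxia, had 1.82, 1.85 and 1.498 FPKM in J7_CTL, against 3.44, 2.98 and 3.21 FPKM in J0_CTL. The groups did not overlap for either gene, and the log2 fold change of Ndufa4l2 was -0.95 ± 0.18 (adjusted p = 2.26e-05), against 0.90 ± 0.03 for Ndufa4. Exons of Shmt2 on the other strand cover 63.3% of the Ndufa4l2 exons, and since the counting is not stated to use strand, reads of the 2 genes cannot be told apart. The same limit holds for other members with exons of genes on the other strand, among them Ndufb11 (67.8% of its exons), Ndufa3 (62.5%), Ndufs7 (49.4%), Ndufa13 (43.3%), Cox5a (41.4%), Uqcrc2 (29.7%), Atp5j (29.6%) and Atp5b (23.1%). Cox7b2, a testis paralog of Cox7b, had no J7 value and 0.795, 0.443 and 0.819 FPKM in J0_CTL.

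**Figure D2:**
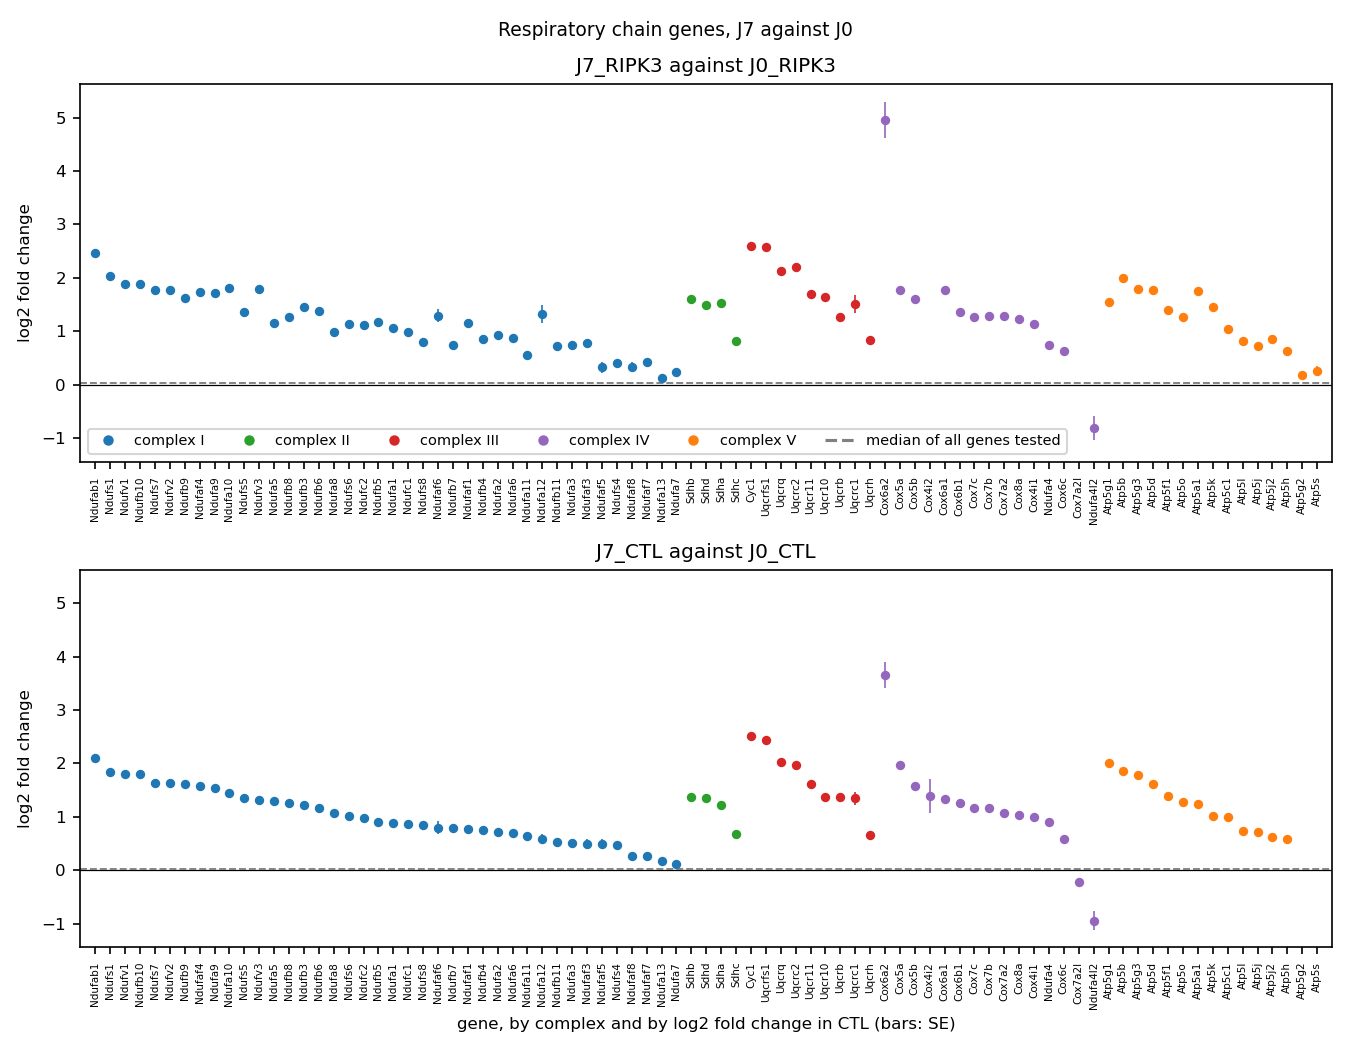
Log2 fold change of each member between differentiated and undifferentiated cells by complex, J7_RIPK3 over J0_RIPK3 above and J7_CTL over J0_CTL below. Points are genes, bars are SE and the dashed line is the median of all genes tested (0.04 and 0.03). Cyc1, Uqcrfs1 and Cox6a2 lead, and Ndufa4l2 lies below 0 in both panels.

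Because so many members moved together, the promoters were searched for letters of motifs known from respiratory genes. RefSeq promoter sequences of the GRCm38.p6 build were found for 67 of the 85 genes, and the 250 bases before the start site were searched on both strands. The NRF1 motif (GCGCA, any base, then GCGC) was present for 14 of 67 members (20.9%), against 8.71% of 9792 protein-coding genes of the tables. The GABPA motif CCGGAAG was present for 12 members (17.9%, against 14.8%), the ERRA motif TCAAGGTCA for 1 member, Atp5g3 (1.49%, against 0.286%), and the YY1 motif (AAGATGG directly followed by CGGC) for 0 (against 0.511%). A match is a run of letters and not a shown binding site, and a window without a match says nothing on the factor.

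Windows of 4 genes are shown, all on the minus strand and read 5′ to 3′ towards the start site, with matches in capitals. Cox6a1 (chr5:115348959-115349208) had the highest mean J7_RIPK3 FPKM of complex IV and holds matches to 2 motifs. Atp5g3 (chr2:73911327-73911576) had the highest J7_RIPK3 FPKM of the subunit c genes and is the only member with the ERRA letters. Uqcrfs1 (chr13:30545317-30545566) rose steeply without any match, and Cox7a2l (chr17:83514334-83514583) fell.
Uqcrfs1: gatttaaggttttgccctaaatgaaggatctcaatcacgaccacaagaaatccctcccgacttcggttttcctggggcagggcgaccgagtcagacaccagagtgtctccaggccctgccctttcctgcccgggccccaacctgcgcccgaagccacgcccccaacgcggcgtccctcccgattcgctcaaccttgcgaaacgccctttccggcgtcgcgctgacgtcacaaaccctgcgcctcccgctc
Cox6a1: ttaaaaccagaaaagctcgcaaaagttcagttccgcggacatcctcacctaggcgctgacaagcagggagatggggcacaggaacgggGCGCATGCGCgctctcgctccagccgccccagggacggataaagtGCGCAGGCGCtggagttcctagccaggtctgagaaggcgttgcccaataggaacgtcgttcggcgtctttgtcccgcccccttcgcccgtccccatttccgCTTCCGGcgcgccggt
Atp5g3: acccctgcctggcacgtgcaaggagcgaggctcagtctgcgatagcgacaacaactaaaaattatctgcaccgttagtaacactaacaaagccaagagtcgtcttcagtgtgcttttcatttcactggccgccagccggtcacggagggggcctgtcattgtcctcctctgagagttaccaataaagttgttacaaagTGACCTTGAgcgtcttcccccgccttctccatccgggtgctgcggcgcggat
Cox7a2l: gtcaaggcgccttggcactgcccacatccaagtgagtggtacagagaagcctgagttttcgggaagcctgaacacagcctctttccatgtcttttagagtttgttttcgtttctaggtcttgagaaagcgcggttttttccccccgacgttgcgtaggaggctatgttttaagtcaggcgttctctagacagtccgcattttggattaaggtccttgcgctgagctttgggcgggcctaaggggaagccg
In the Cox6a1 window the NRF1 letters lie at positions -162 to -153 and -117 to -108 from the start site and the GABPA letters, on the opposite strand, at -16 to -10, without overlap. In the Atp5g3 window the ERRA letters, also on the opposite strand, lie at -52 to -44. The 2 other windows hold none of the 4 motifs, and they belong to a gene that rose and a gene that fell.

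Differentiated RIPK3-/- cells also held more respiratory chain mRNA than undifferentiated RIPK3-/- cells. Of 82 members tested in J7_RIPK3 against J0_RIPK3, 81 rose and 1, Ndufa4l2, fell, while 49.3% of all 11798 genes tested rose and 48.5% fell. Here too the authors had listed 82 members, 81 higher and 1 lower, and 97.8% of all genes tested were called, so the shares come from preselected genes. The median log2 fold change was 1.27 over the members and 0.04 over all genes tested. The 80 members with counts in every CTL and RIPK3 group took 1.85 ± 0.116% of the reads in J7_RIPK3 and 0.666 ± 0.00789% in J0_RIPK3 (SD, n = 3 each). By complex the median was 1.70 for complex III, 1.51 for II, 1.28 for IV, 1.27 for V and 1.15 for I. Cyc1 had 190, 185 and 171 FPKM in J7_RIPK3, against 29.2, 28.6 and 29.8 FPKM in J0_RIPK3, and its log2 fold change was 2.61 ± 0.04 (adjusted p = 2.64e-23). Cox6a2 was again the member with the largest change, 4.60, 4.73 and 4.50 FPKM in J7_RIPK3, against 0.174, 0.192 and 0.0796 FPKM in J0_RIPK3 (log2 fold change 4.96 ± 0.34, adjusted p = 9.71e-12). The smallest rise was 0.12 ± 0.04 (adjusted p = 0.0125), for Ndufa13, a call that was lost without replicate 1 of either group. Atp5s, named factor B of the ATP synthase, had 8.28, 6.90 and 7.98 FPKM in J7_RIPK3, against 6.56, 6.22 and 6.33 FPKM in J0_RIPK3, and rose by 0.25 ± 0.09 (adjusted p = 0.0103).

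The difference between the 2 changes, that of RIPK3-/- cells minus that of control cells, was tested for 80 members. It was above 0 for 35 and below 0 for 3, while 18.4% of all 11027 genes tested were above and 20.6% below. The median difference was 0.15 on the log2 scale, against 0.01 over all genes. When libraries were scaled to total reads alone, 23 members were above 0, with a median difference of 0.12 over the members and -0.02 over all genes. By complex, 19 of 41 genes of complex I, 4 of 4 of complex II, 3 of 9 of complex III, 4 of 13 of complex IV and 5 of 13 of complex V were above 0. Examples are Sdha with a difference of 0.34 ± 0.05 (adjusted p = 7.29e-07), Ndufab1 with 0.38 (adjusted p = 4.33e-05), Atp5a1 with 0.52 ± 0.10 (adjusted p = 7.11e-05) and Cox6a1 with 0.45 ± 0.06 (adjusted p = 1.26e-06). The 3 below 0 were Atp5g1 at -0.44 ± 0.08 (adjusted p = 5.56e-05), Cox5a at -0.19 ± 0.06 (adjusted p = 0.0193) and Ndufa4 at -0.14 ± 0.05 (adjusted p = 0.0224). Without J7_RIPK3 3, 47 members were above 0 and only Atp5g1 below, while 17.9% of all 11078 genes tested were above and 19.9% below. In that fit the call was lost for Cox5a, with -0.14 (adjusted p = 0.0616), and for Ndufa4, with -0.11 (adjusted p = 0.0634). Cox5a also lost the call without J0_RIPK3 1, and Ndufa4 without J0_RIPK3 2, J7_CTL 2, J0_CTL 2 or J0_CTL 3. With the J7 knockouts grouped by the genotype characteristic, 0 members were above 0 and 22 below. The J7_MLKL libraries then stand for RIPK3-/- cells, and at most 28 members, not 80, had the counts needed. All of these but Ndufa4l2 were listed by the authors as lower in J7_MLKL than in J7_CTL, so the direction was largely set by that listing. The share over all genes is not given for this grouping.

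In the differentiated state, RIPK3-/- cells exceeded control cells in many members by small steps. Of 82 members tested in J7_RIPK3 against J7_CTL, 48 were higher and 6 lower, while 29.6% of all 11170 genes tested were higher and 29.5% lower. The median log2 fold change was 0.13 over the members and 0.00 over all genes. All 9 genes of complex III and all 4 of complex II were higher, with medians of 0.17 and 0.22, and so were 22 of 41 genes of complex I, 7 of 14 of complex V and 6 of 14 of complex IV. Sdha had 146, 145 and 136 FPKM in J7_RIPK3, against 115, 115 and 118 FPKM in J7_CTL (log2 fold change 0.31 ± 0.03, adjusted p = 5.4e-08). Sdhb had 104, 97.6 and 93.5 FPKM in J7_RIPK3, against 75.4, 78.9 and 76.9 FPKM in J7_CTL (0.36 ± 0.04, adjusted p = 3.36e-08). For both subunits all 3 J7_RIPK3 libraries lay above all 3 J7_CTL libraries, and library 3 was the lowest of its group.

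Other members did not pass the test between these groups. Cox8a had a log2 fold change of 0.00 (adjusted p = 0.93), Ndufv1 0.05 (adjusted p = 0.187), Cox5a 0.06 (adjusted p = 0.204) and Atp5c1 0.07 (adjusted p = 0.198). The count of higher members ranged from 33 without J7_CTL 2 to 61 without J7_RIPK3 3, where 29.1% of all 11229 genes tested were higher. The sum of the adipocyte markers was higher in J7_RIPK3 than in J7_CTL by the values given above. Of 6 brown adipocyte markers, 4 had counts, Cidea, Cox7a1, Cox8b and Elovl3, while Ucp1 and Dio2 had none. The 4 summed to 99.6 to 120 CPM in J7_RIPK3 and 11.5 to 15.5 CPM in J7_CTL. Cidea had the highest difference between the RIPK3-/- and control changes of all genes tested, 6.52 on the log2 scale, so the sum may rest largely on 1 gene. The part of these marker levels in the small rises was not tested.

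The highest changes came from a few genes of complex V and complex IV. Atp5k, subunit e of the membrane part, had 183, 157 and 147 FPKM in J7_RIPK3, against 99.7, 91.2 and 95.6 FPKM in J7_CTL. Atp5j2, subunit f, had 77.2, 75.6 and 64.8 FPKM in J7_RIPK3, against 45.0, 43.6 and 44.8 FPKM in J7_CTL. Cox6a1 had 1096, 1006 and 896 FPKM in J7_RIPK3, against 666, 637 and 646 FPKM in J7_CTL. In all of these the groups were far apart, with log2 fold changes of 0.78 ± 0.06 (adjusted p = 1.28e-10), 0.72 ± 0.05 (adjusted p = 1.04e-11) and 0.63 ± 0.05 (adjusted p = 7.95e-11). Atp5a1 had 17.0, 18.5 and 16.9 FPKM in J7_RIPK3, against 12.2, 10.9 and 11.1 FPKM in J7_CTL (0.62 ± 0.05, adjusted p = 2.2e-09). Within complex I the assembly factor Ndufaf1 rose by 0.43 ± 0.05 (adjusted p = 5.52e-07) and the accessory subunit Ndufa2 by 0.40 ± 0.04 (adjusted p = 8.56e-08). Ndufa12, an accessory subunit, had 16.9, 16.7 and 31.95 FPKM in J7_RIPK3, against 17.0, 15.5 and 17.2 FPKM in J7_CTL. Only library 3 stood out for it, and the log2 fold change of 0.43 ± 0.16 (adjusted p = 0.0236) was 0.02 (adjusted p = 0.811) without that library and was not called without J7_CTL 2 either.

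The 4 members with the highest changes lie on 2 chromosomes, Atp5k, Atp5j2 and Cox6a1 on chromosome 5 and Atp5a1 on chromosome 18. Of the complex I genes named above, Ndufa2 lies on chromosome 18 too, but Ndufaf1 on chromosome 2 and Ndufa12 on chromosome 10. On chromosome 5, 78.3% of all genes tested were higher in J7_RIPK3, with a median log2 fold change of 0.41, and on chromosome 18 it was 71.4% with a median of 0.31. The medians of the other chromosomes ran from -0.20 to 0.12. The 5 members on chromosomes 5 and 18 were all higher with a median of 0.63, and of the 77 members on other chromosomes 43 were higher and 6 lower, with a median of 0.12. The 2 chromosomes were singled out after the values were seen, and their part in the members' changes was not tested.

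**Figure D3:**
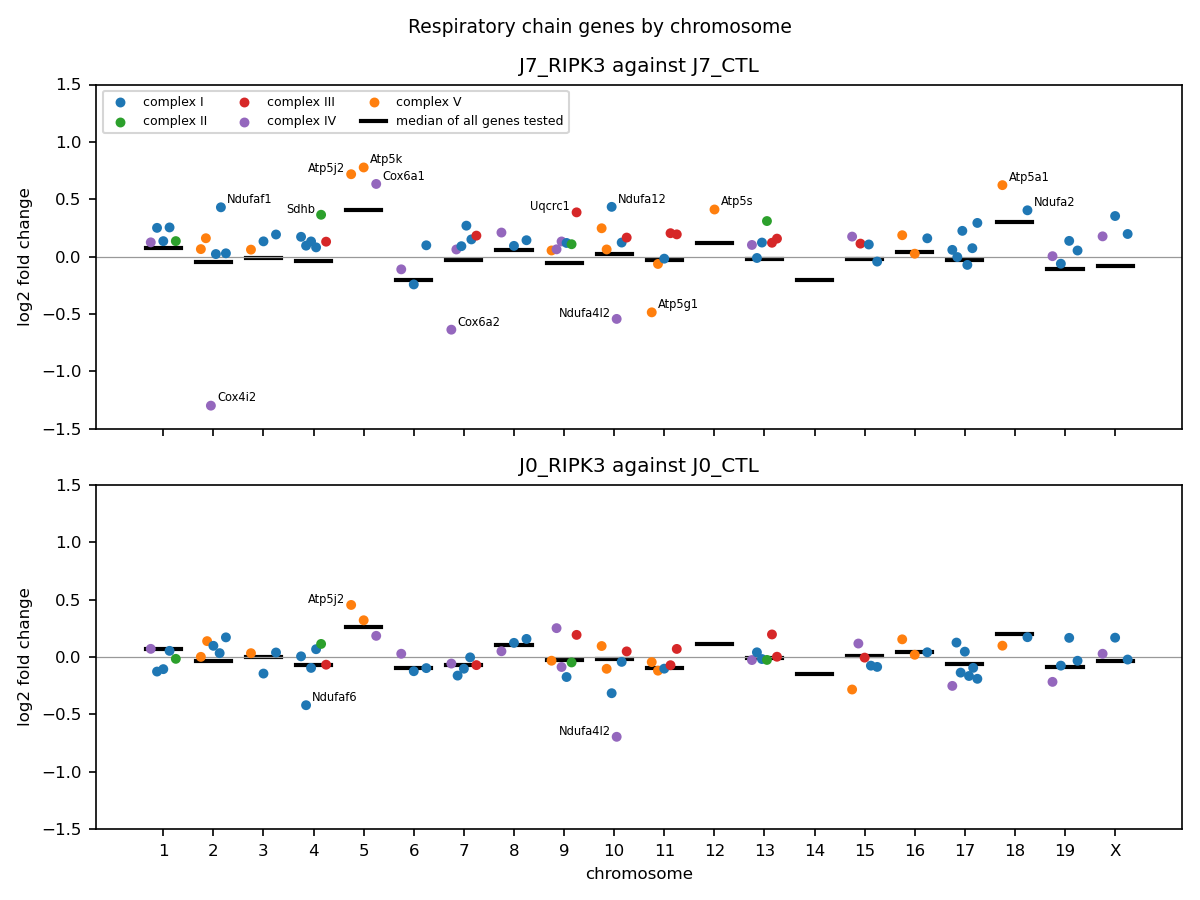
Log2 fold change of members by chromosome, J7_RIPK3 over J7_CTL above and J0_RIPK3 over J0_CTL below. Points are members coloured by complex and bars are medians of all genes tested on the chromosome. The bars of chromosomes 5 and 18 stand highest in both panels, at 0.41 and 0.31 above and at 0.26 and 0.20 below, and Atp5k, Atp5j2, Cox6a1, Atp5a1 and Ndufa2 lie there.

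The 6 members that were lower in J7_RIPK3 included the 3 tissue or condition forms of complex IV. Cox4i2 had 0.582, 0.503 and 0.719 FPKM in J7_RIPK3, against 1.16, 1.49 and 1.89 FPKM in J7_CTL, with no overlap and a log2 fold change of -1.30 ± 0.33 (adjusted p = 0.00177). Cox6a2 had 4.60, 4.73 and 4.50 FPKM in J7_RIPK3, against 7.37, 7.94 and 6.42 FPKM in J7_CTL (-0.64 ± 0.15, adjusted p = 0.00113). Ndufa4l2 had 1.10, 1.36 and 1.07 FPKM in J7_RIPK3, against 1.82, 1.85 and 1.498 FPKM in J7_CTL. Its change of -0.54 ± 0.23 (adjusted p = 0.0495) lost the call under 7 of the alternatives run, among them without J7_RIPK3 1 or 3 and without J7_CTL 1 or 2. Atp5g1 was lower with 21.4, 19.7 and 19.2 FPKM in J7_RIPK3, against 30.96, 26.8 and 27.6 FPKM in J7_CTL (-0.49 ± 0.05, adjusted p = 1.96e-08), while Atp5g3, for the same subunit c, differed by 0.16. The accessory subunit Ndufa5 differed by -0.24 ± 0.04 (adjusted p = 1.32e-05) and Ndufa4 by -0.11 ± 0.04 (adjusted p = 0.0099). Both lie on chromosome 6, where 55.2% of all genes tested were lower in J7_RIPK3, with a median log2 fold change of -0.20. Ndufa9, on the same chromosome, was not among the lower members. The part of the chromosome, looked at after the values were seen, was not tested.

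Before differentiation, RIPK3-/- and control cells differed little in the respiratory chain. Of 81 members tested in J0_RIPK3 against J0_CTL, 17 were higher and 15 lower, while 28.3% of all 11044 genes tested were higher and 27.4% lower. Both medians were -0.01 on the log2 scale. Without J0_CTL 1, 16 members were higher and 9 lower, while 27.2% of all 11082 genes tested were higher and 25.9% lower. Atp5j2 led with 39.5, 39.6 and 38.3 FPKM in J0_RIPK3, against 28.6, 28.2 and 27.5 FPKM in J0_CTL (log2 fold change 0.45 ± 0.03, adjusted p = 7e-11). Atp5k followed with 61.1, 55.4 and 56.7 FPKM in J0_RIPK3, against 51.5, 46.1 and 38.2 FPKM in J0_CTL (0.32 ± 0.07, adjusted p = 0.000729), and both groups stayed apart for both genes. Cox5a, a common subunit of complex IV, was higher by 0.25 ± 0.05 (adjusted p = 0.000127) and Cox6a1 by 0.18 ± 0.03 (adjusted p = 7.62e-05). Cyc1 differed by -0.01 (adjusted p = 0.91), Sdha by -0.03 (adjusted p = 0.507) and Ndufs1 by 0.05 (adjusted p = 0.192). Of the 5 members on chromosomes 5 and 18, 4 were higher with a median of 0.18, against 13 of 76 higher and 15 lower elsewhere, with a median of -0.02.

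The lowest value in undifferentiated RIPK3-/- cells was again that of Ndufa4l2, with 2.19, 2.07 and 1.83 FPKM in J0_RIPK3, against 3.44, 2.98 and 3.21 FPKM in J0_CTL (log2 fold change -0.70 ± 0.16, adjusted p = 0.000862). Atp5g2 had 59.0, 60.3 and 61.5 FPKM in J0_RIPK3, against 75.1, 72.4 and 69.3 FPKM in J0_CTL (-0.28 ± 0.04, adjusted p = 3.94e-07). Cox7a2l had 127, 134 and 127 FPKM in J0_RIPK3, against 161, 151 and 141 FPKM in J0_CTL (-0.25 ± 0.04, adjusted p = 6.83e-06). In these genes no J0_RIPK3 library reached a J0_CTL library. Cox8a had -0.22 ± 0.04 (adjusted p = 7.27e-05). The lowest complex I genes were Ndufaf6 at -0.42 ± 0.14 (adjusted p = 0.0152), a call lost without J0_RIPK3 1 or without J0_CTL 3, and Ndufa12 at -0.32 ± 0.10 (adjusted p = 0.0121), a call lost without J0_RIPK3 3 or without J0_CTL 1 or 2. Cox7b2 was not tested. It had 0, 0 and 0.200 FPKM in J0_RIPK3, against 0.795, 0.443 and 0.819 FPKM in J0_CTL.

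In differentiated MLKL-/- cells every listed member lay below the control mean. Of 29 members tested in J7_MLKL against J7_CTL, 24 were lower and 0 higher, while 46.4% of all 7263 genes tested were lower and 48.5% higher. At an unadjusted p under 0.05 the counts were also 24 lower and 0 higher, and DESeq2 gave 28 lower and 0 higher. The median log2 fold change was -0.94 over the members and 0.17 over all genes tested. The authors' deposited table of this comparison listed 28 of the 85 members (32.9%), all of them lower, and 23.2% of the 15194 joined genes as lower. That listing gave most of these members their counts, so it is no separate result. Members are seen in J7_MLKL only where an MLKL table lists them, so the remaining members were not analysed here.

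Library J7_MLKL 3 was the highest for most of these members. The ratio of a library's CPM to the J7_CTL mean had a median over the 29 members of 0.353 in J7_MLKL 1, 0.358 in J7_MLKL 2 and 0.683 in J7_MLKL 3, while over all genes tested it was 1.01, 1.02 and 0.933. Without J7_MLKL 3, all 29 members were lower with a median of -1.45, while 47.6% of 7408 genes tested were lower, 49.9% higher, and their median was 0.18. In J7_MLKL 3, 22 of the 29 members were more than 1.5 times the mean of the other J7_MLKL libraries, and 4 members, Sdha, Ndufs1, Uqcrc2 and Cox4i2, were less than 1.2 times it. Transcript length moved with the result over all genes, whose median log2 fold change in J7_MLKL against J7_CTL was 0.36 for transcripts of up to 2000 bases and -0.29 for longer ones. The members had medians of -0.99 in the shorter class (20 genes) and -0.89 in the longer class (9 genes).

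**Figure D4:**
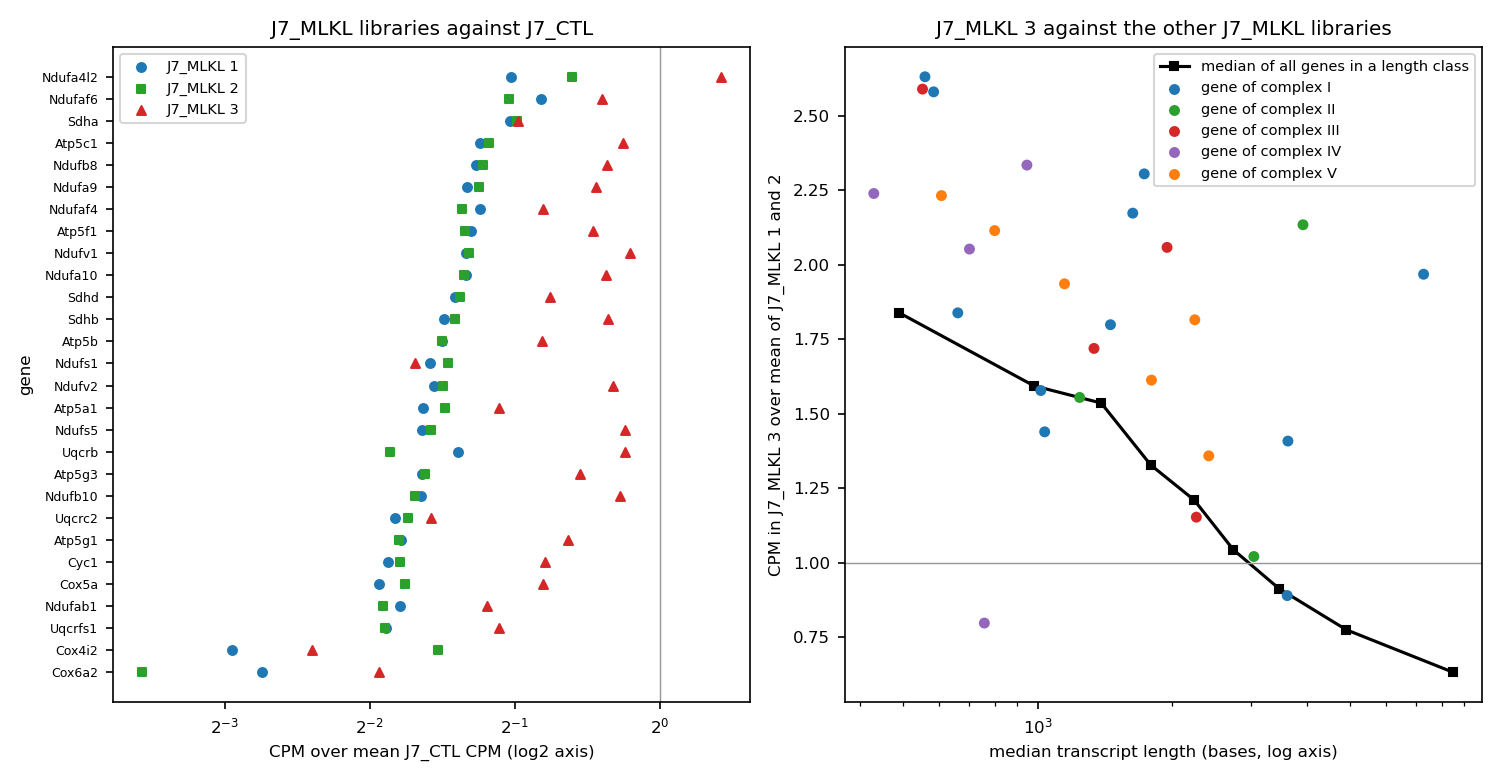
Left, CPM of 28 members in each J7_MLKL library over the J7_CTL mean, on a log2 axis. Right, CPM of J7_MLKL 3 over the mean of J7_MLKL 1 and 2 against median transcript length on a log axis, for members and, as a black line, the all-gene median per length class. Over all 29 members the medians are 0.353 and 0.358 in J7_MLKL 1 and 2 and 0.683 in library 3, and the ratio of library 3 falls with length from 1.84 to 0.633 over all genes.

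Among the listed members, the largest falls in J7_MLKL were those of Cox6a2 and Cox4i2 of complex IV and Uqcrc2 of complex III. Ndufab1 of complex I followed with -1.49. Only 4 of 9 complex III genes and 4 of 16 complex IV genes had J7_MLKL counts, so the complexes cannot be ranked. Cyc1 had 46.3, 48.9 and 98.0 FPKM in J7_MLKL, against 173, 168 and 168 FPKM in J7_CTL. Uqcrfs1 had 62.7, 62.5 and 108 FPKM in J7_MLKL, against 232, 231 and 235 FPKM in J7_CTL. Uqcrc2 had 32.7, 34.8 and 38.9 FPKM in J7_MLKL, against 116, 114 and 118 FPKM in J7_CTL. No J7_MLKL library reached a control library for these genes, and only Uqcrc2 had library 3 close to the others. The log2 fold changes were -1.29 ± 0.30 (adjusted p = 0.00579) for Cyc1, -1.48 ± 0.23 (adjusted p = 0.0011) for Uqcrfs1 and -1.61 ± 0.10 (adjusted p = 3.16e-05) for Uqcrc2. Without J7_MLKL 3 they were -1.76 ± 0.04 for Cyc1, -1.82 ± 0.04 for Uqcrfs1 and -1.71 ± 0.04 for Uqcrc2. Uqcrb, the fourth gene of complex III seen here, had -0.89 ± 0.40 (adjusted p = 0.0658), and -1.53 ± 0.09 (adjusted p = 1.85e-12) without J7_MLKL 3.

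In complex IV, Cox6a2 had 1.08, 0.610 and 1.89 FPKM in J7_MLKL, against 7.37, 7.94 and 6.42 FPKM in J7_CTL (log2 fold change -2.47 ± 0.37, adjusted p = 0.000916). Cox4i2 had 0.196, 0.526 and 0.288 FPKM in J7_MLKL, against 1.16, 1.49 and 1.89 FPKM in J7_CTL (-2.08 ± 0.41, adjusted p = 0.00282). Both isoforms fell below all control libraries. Cox5a, the only common subunit of complex IV with J7_MLKL counts, had 17.7, 19.95 and 38.6 FPKM in J7_MLKL, against 67.5, 66.6 and 68.4 FPKM in J7_CTL (-1.30 ± 0.30, adjusted p = 0.00551). Without J7_MLKL 3 the log2 fold change was -2.99 for Cox6a2, -2.04 for Cox4i2 and -1.78 for Cox5a. Ndufa4l2 was the exception, with 0.847, 1.14 and 2.31 FPKM in J7_MLKL, against 1.82, 1.85 and 1.498 FPKM in J7_CTL. Its groups overlapped through library 3, and the log2 fold change of -0.15 ± 0.39 (adjusted p = 0.714) was -0.74 (adjusted p = 0.0159) without that library.

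In complex I, 9 of 12 genes fell with a median of -0.87. Ndufs1 had 13.1, 14.3 and 12.2 FPKM in J7_MLKL, against 38.8, 38.9 and 39.8 FPKM in J7_CTL, and its log2 fold change of -1.47 ± 0.10 (adjusted p = 3.3e-05) was -1.45 ± 0.04 without J7_MLKL 3. Ndufv1 had 59.0, 60.0 and 129 FPKM in J7_MLKL, against 149, 149 and 150 FPKM in J7_CTL (-0.74 ± 0.32, adjusted p = 0.0561, and -1.26 ± 0.04, adjusted p = 1.73e-16, without J7_MLKL 3). In both genes every J7_MLKL library was below every control library, and they differ in how far library 3 stood from the other J7_MLKL libraries. Ndufab1 fell by 1.49 on the log2 scale (SE 0.20, adjusted p = 0.000576), Ndufaf4 by 1.01 (SE 0.17, adjusted p = 0.00157), and Ndufb10 and Ndufs5 had -0.94 ± 0.39 (adjusted p = 0.053) and -0.89 ± 0.38 (adjusted p = 0.0575). Without J7_MLKL 3 all of these were called, with -1.78 for Ndufab1, -1.22 for Ndufaf4, -1.60 for Ndufb10 and -1.54 for Ndufs5.

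All 3 complex II genes and all 6 complex V genes with values fell, with medians of -0.89 and -1.10. Sdha had 56.9, 58.8 and 59.0 FPKM in J7_MLKL, against 115, 115 and 118 FPKM in J7_CTL, and a log2 fold change of -0.89 ± 0.09 (adjusted p = 0.000139). Sdhb had 27.5, 29.0 and 60.3 FPKM in J7_MLKL, against 75.4, 78.9 and 76.9 FPKM in J7_CTL (-0.88 ± 0.31, adjusted p = 0.0292). Without J7_MLKL 3 they had -0.94 and -1.38, and the Sdhb call was lost without J7_MLKL 1, J7_MLKL 2 or any 1 of the J7_CTL libraries. The 2 subunits had like fold changes, but in Sdha the 3 libraries lay together and in Sdhb library 3 was higher than the others. Atp5b had 197, 197 and 318 FPKM in J7_MLKL, against 563, 553 and 560 FPKM in J7_CTL (-1.13 ± 0.21, adjusted p = 0.0023). Atp5a1 had 3.70, 4.10 and 5.30 FPKM in J7_MLKL, against 12.2, 10.9 and 11.1 FPKM in J7_CTL (-1.29 ± 0.16, adjusted p = 0.000436). No J7_MLKL library of either F1 gene reached a control library. The subunit c genes Atp5g1 and Atp5g3 fell by 1.19 and 1.07 on the log2 scale (adjusted p = 0.0122 and 0.0141), and Atp5c1 by 0.71 (adjusted p = 0.041), a call lost without J7_MLKL 1, J7_MLKL 2 or any 1 of the J7_CTL libraries. Without J7_MLKL 3 the values were -1.43 for Atp5b, -1.49 for Atp5a1, -1.72 for Atp5g1, -1.56 for Atp5g3 and -1.14 for Atp5c1.

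Set beside the undifferentiated control, the summed level of the listed members in J7_MLKL stood between the 2 control states. All of the summed members but Ndufa4l2 were listed by the authors as lower than J7_CTL. A sum below J7_CTL was thus set by that listing, and members not listed are absent from the sum. The 28 members with counts in J7_MLKL and in all CTL and RIPK3 groups summed to 3104, 3147 and 5461 CPM in J7_MLKL, 10006, 9694 and 8992 CPM in J7_RIPK3, 8691, 8449 and 8651 CPM in J7_CTL, 2710, 2763 and 2738 CPM in J0_RIPK3, and 2690, 2623 and 2620 CPM in J0_CTL. For 19 of these 28 members all 3 J7_MLKL libraries exceeded every J0_CTL library in FPKM, and for 4 members, among them Atp5c1, J7_MLKL 1 and 2 were below every J0_CTL library. The 2 groups differ in both genotype and stage. Matching shares over all genes were not worked out, so these counts are no result about the members as a set. The adipocyte marker sum, 3605 to 5159 CPM in J7_MLKL, 21529 to 22635 CPM in J7_CTL and 274 to 279 CPM in J0_CTL, was likewise between the 2 control groups. How far the extent of differentiation accounts for the members' levels was not tested.

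Against J7_RIPK3 the same 29 members gave 20 lower and 0 higher, while 42.0% of all 6591 genes tested were lower and 44.8% higher. All of these members but Ndufa4l2 were listed by the authors as lower in J7_MLKL than in J7_CTL, and the same J7_MLKL libraries enter here. The direction was thus largely set by that listing, and these counts are no separate result. At an unadjusted p under 0.05, 21 were lower and 0 higher, and DESeq2 gave 25 lower and 0 higher. The median log2 fold change was -0.999, against -0.03 over all genes tested. Without J7_MLKL 3 the members' median was -1.44 with 27 members lower, while 47.0% of all 6672 genes tested were lower. Atp5a1 had the largest difference, with 3.70, 4.10 and 5.30 FPKM in J7_MLKL, against 17.0, 18.5 and 16.9 FPKM in J7_RIPK3 (-1.82 ± 0.17, adjusted p = 8.65e-05). Uqcrc2 followed Cox6a2 (-1.75 ± 0.38, adjusted p = 0.00428) with -1.71 ± 0.12 (adjusted p = 2.9e-05). Without J7_MLKL 3, Atp5a1 had -2.02, Cox6a2 -2.26 and Uqcrc2 -1.80. Ndufa4l2 and Cox4i2 were not called, with 0.47 (adjusted p = 0.304) and -0.70 (adjusted p = 0.16), nor were they called without J7_MLKL 3, where Ndufa4l2 had -0.10 (adjusted p = 0.756) and Cox4i2 -0.65 (adjusted p = 0.255). The comparisons of J7_MLKL and J7_RIPK3 with J7_CTL share the control libraries. Side by side, Atp5a1 had log2 fold changes of -1.29 in J7_MLKL and 0.62 in J7_RIPK3, Sdha -0.89 and 0.31, Uqcrfs1 -1.48 and 0.16, and Cox4i2 -2.08 and -1.30.

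Undifferentiated MLKL-/- cells had values for 6 members. Of the 5 tested in J0_MLKL against J0_CTL, 4 were higher and 1 lower, while 40.4% of all 3824 genes tested were higher and 43.2% lower. The authors had listed these 4 members as higher in this same comparison. The 4 calls thus repeat that listing and are no separate result. Cox4i1 had 280, 441 and 271 FPKM in J0_MLKL, against 213, 200 and 194 FPKM in J0_CTL (log2 fold change 0.74 ± 0.17, adjusted p = 0.00454). Atp5j, a stalk subunit of the ATP synthase, had 38.3, 54.2 and 36.9 FPKM in J0_MLKL, against 27.2, 27.2 and 26.0 FPKM in J0_CTL (0.72 ± 0.14, adjusted p = 0.00191). Atp5o, the subunit that ties the stalk to F1, had 65.8, 104.6 and 63.4 FPKM in J0_MLKL, against 54.5, 51.8 and 51.5 FPKM in J0_CTL (0.60 ± 0.17, adjusted p = 0.0123). In all of these J0_MLKL 2 stood highest and the other J0_MLKL libraries still lay above every control library. Without J0_MLKL 2 the values were 0.48 ± 0.04 for Cox4i1, 0.52 ± 0.04 for Atp5j and 0.33 ± 0.04 for Atp5o.

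The other J0_MLKL values were those of Ndufa4l2, Ndufaf4 and Cox7b2. Ndufa4l2 had 4.25, 5.86 and 5.22 FPKM in J0_MLKL, against 3.44, 2.98 and 3.21 FPKM in J0_CTL (0.70 ± 0.15, adjusted p = 0.00337), and 0.60 ± 0.16 without J0_MLKL 2. Ndufaf4 had 2.14, 2.27 and 1.88 FPKM in J0_MLKL, against 2.66, 2.62 and 2.71 FPKM in J0_CTL. Its log2 fold change was -0.31 ± 0.10 (adjusted p = 0.0209), a call lost without J0_MLKL 3 or any 1 of the J0_CTL libraries, and it was -0.37 ± 0.11 (adjusted p = 0.00311) without J0_MLKL 2. Cox7b2 had 0.159, 0 and 0 FPKM in J0_MLKL and was tested only without J0_MLKL 2, where it had -3.02 ± 0.91 (adjusted p = 0.0037).

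Only Ndufaf4 and Ndufa4l2 could be followed through differentiation of MLKL-/- cells. Of these 2 members tested in J7_MLKL against J0_MLKL, 1 rose and 1 fell, while 35.8% of all 3075 genes tested rose and 30.9% fell. Ndufaf4 had 3.48, 3.19 and 4.69 FPKM in J7_MLKL, against 2.14, 2.27 and 1.88 FPKM in J0_MLKL, a log2 fold change of 0.82 ± 0.19 (adjusted p = 0.00842) that was 0.62 ± 0.13 without J7_MLKL 3 and 0.85 ± 0.23 without J0_MLKL 2. Ndufa4l2 had 0.847, 1.14 and 2.31 FPKM in J7_MLKL, against 4.25, 5.86 and 5.22 FPKM in J0_MLKL (-1.85 ± 0.38, adjusted p = 0.00557), with -2.42 ± 0.25 without J7_MLKL 3 and -1.78 ± 0.44 without J0_MLKL 2. Of these 2 members, Ndufa4l2 fell and Ndufaf4 rose with differentiation in all 3 genotypes. The authors had listed both in J7_MLKL against J0_MLKL, 1 higher and 1 lower, so the calls in that comparison repeat the listing. The overlap of Ndufa4l2 with Shmt2 exons, given above, limits its values here too. In the test of the change in MLKL-/- cells minus that in control cells, 39.0% of all 3033 genes tested were above 0 and 26.3% below. Ndufaf4 had a difference of -0.80 ± 0.20 (adjusted p = 0.00409) and Ndufa4l2 -0.96 ± 0.42 (adjusted p = 0.062). Without J7_MLKL 3 they had -0.99 ± 0.14 (adjusted p = 2.31e-05) and -1.51 ± 0.29 (adjusted p = 0.000354).

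The subunits encoded in mitochondrial DNA moved mostly the same way as the nuclear genes in the RIPK3-/- comparisons of differentiated cells, but not in control differentiation or in J7_MLKL. These genes, and those beside the chain described below, were seen only where the authors listed them, as the members were. Shares over all genes tested are those given above for each comparison. In J7_MLKL against J7_CTL, 94.9% of all genes tested were called. In J7_CTL against J0_CTL, 2 of 10 tested rose and 7 fell, with mt-Nd2 highest at 0.37 and mt-Co3 lowest at -0.55. In J7_RIPK3 against J0_RIPK3, 7 of 8 rose, with mt-Atp6 at 0.84, and mt-Co1 fell by 0.25 on the log2 scale. In J7_MLKL against J7_CTL all 10 were higher, from 0.85 for mt-Co1 to 2.23 for mt-Nd3, with a median of 1.30, and without J7_MLKL 3 all 10 were still higher with a median of 1.02. Against J7_RIPK3, 7 of 8 were higher in J7_MLKL and 0 lower. In J7_RIPK3 against J7_CTL, 9 of 10 were higher, with mt-Nd4l highest at 1.66. In undifferentiated cells all 7 tested were higher in J0_MLKL than in J0_CTL, with a median of 0.37 that was 0.41 without J0_MLKL 2, while in J0_RIPK3 against J0_CTL 3 of 8 were higher and 2 lower. mt-Nd1, a core subunit of complex I, had 4373, 4496 and 4653 CPM in J7_MLKL, 2565, 2685 and 2488 CPM in J7_RIPK3, and 2723, 2523 and 2701 CPM in J7_CTL. mt-Co1, the catalytic subunit of complex IV, had 12138, 12323 and 8595 CPM in J7_MLKL, 7572, 7585 and 7245 CPM in J7_RIPK3, and 6695, 6437 and 6581 CPM in J7_CTL. All 3 J7_MLKL libraries were above the other differentiated groups for both genes, and library 3 was lowest of its group for mt-Co1. The 7 mitochondrial genes with counts in every library took 2.64 ± 0.231% of the reads in J7_MLKL, 1.76 ± 0.0227% in J7_RIPK3, 1.51 ± 0.0422% in J7_CTL, 1.98 ± 0.0268% in J0_MLKL, 1.71 ± 0.0693% in J0_RIPK3 and 1.59 ± 0.0258% in J0_CTL (SD, n = 3 each).

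**Figure D5:**
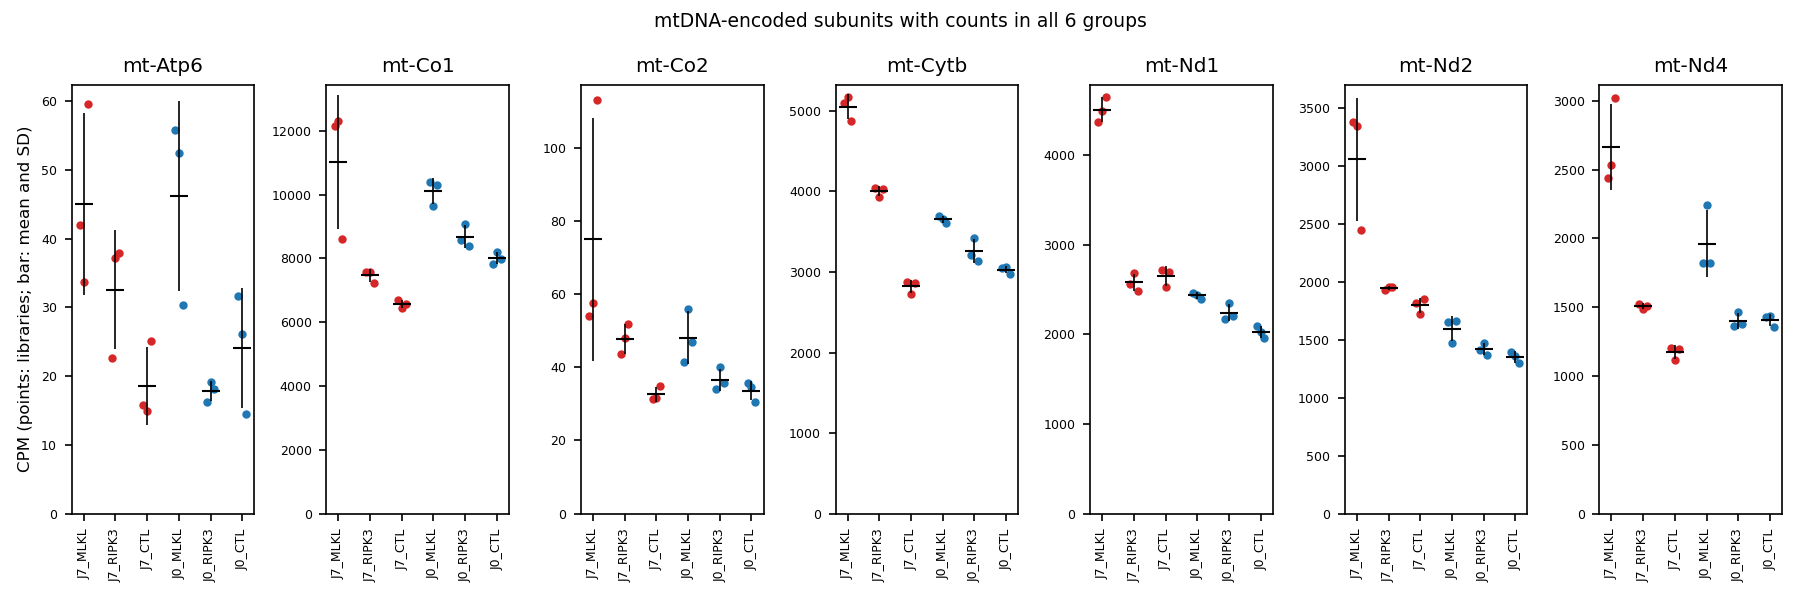
CPM of 7 genes of mitochondrial DNA in each library, with the mean and SD of each group as bars, differentiated groups in red and undifferentiated groups in blue. Together they took 2.64% of the reads in J7_MLKL and 1.51 to 1.98% in the other groups.

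Listed genes that work beside the chain moved largely with it. Cycs, the cytochrome c that carries electrons between complexes III and IV, had 65.2, 75.5 and 139 CPM in J7_MLKL, 608, 590 and 532 CPM in J7_RIPK3 and 601, 550 and 566 CPM in J7_CTL. In undifferentiated cells it had 30.8, 37.0 and 27.5 CPM in J0_MLKL, 46.7, 46.0 and 44.9 CPM in J0_RIPK3 and 35.3, 32.9 and 33.3 CPM in J0_CTL. Its rise in J7_CTL against J0_CTL, 4.03 ± 0.04 on the log2 scale, was larger than that of any member, and it differed by -2.51 ± 0.30 in J7_MLKL against J7_CTL and by -2.96 ± 0.06 without J7_MLKL 3. For Cycs the J7_MLKL libraries lay between the undifferentiated and the other differentiated libraries, with library 3 the highest of the group. Of 17 electron carriers and feeder enzymes, 16 rose and 1 fell in J7_CTL against J0_CTL, the lowest being the glycerol phosphate dehydrogenase Gpd2 at -0.43 ± 0.05. In J7_RIPK3 against J0_RIPK3, 15 of 16 rose and 1 fell. In J7_RIPK3 against J7_CTL, 12 of 16 were higher and 0 lower, from Dhodh at -0.05, not called, to Gpd2 at 0.60. In J7_MLKL against J7_CTL, 11 of 13 were lower and 1 higher, Coq2 at 0.46 ± 0.11, while 46.4% of all genes tested were lower and 48.5% higher. Before differentiation 4 of 16 were higher and 2 lower in J0_RIPK3 than in J0_CTL, and 1 of 3 was lower in J0_MLKL than in J0_CTL, or 3 of 3 without J0_MLKL 2.

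Listed assembly factors outside the Ndufaf family moved mostly in the same directions, with Cox17 apart. Of 33 tested in J7_CTL against J0_CTL, 30 rose and 3 fell. The highest was Atpaf2, an assembly factor of F1, at 2.37 ± 0.07, and the lowest Cox17, a copper chaperone of complex IV, at -1.19 ± 0.11. In J7_RIPK3 against J0_RIPK3, 29 of 31 rose and 2 fell, with Cox17 at -0.51. In J7_RIPK3 against J7_CTL, 15 of 32 were higher and 2 lower, with Cox19 highest at 0.81 ± 0.06. In J7_MLKL against J7_CTL, 19 of 20 were lower and 1 higher, while 46.4% of all genes tested were lower and 48.5% higher. Cox17 was the higher gene, at 1.42 ± 0.21, while Foxred1, a complex I assembly factor, was lowest at -1.44 ± 0.11. Without J7_MLKL 3 the counts were also 19 lower and 1 higher, with Cox17 still the higher gene. In J0_RIPK3 against J0_CTL, 2 of 31 were higher and 7 lower.

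Among 24 regulators of mitochondrial biogenesis, the coactivators of the PGC-1 family differed from each other. In J7_CTL against J0_CTL, 15 of 20 tested rose and 5 fell, with Ppargc1b highest at 5.93 ± 0.12 and Ppargc1a lowest at -1.96 ± 0.12. Esrra, the nuclear receptor that works with them, rose by 1.60. In J0_RIPK3 against J0_CTL, 3 of 19 were higher and 3 lower, and in J0_MLKL against J0_CTL all 4 tested were higher. In J7_RIPK3 against J7_CTL, 7 of 19 were higher and 1 lower, with Ppargc1a highest at 1.54 ± 0.15. In J7_MLKL against J7_CTL, 5 of 16 were higher and 11 lower, while 48.5% of all genes tested were higher and 46.4% lower. Ppargc1a was highest there at 1.93 ± 0.31, Ppargc1b lowest at -2.37 ± 0.40, and Esrra had -1.12. Without J7_MLKL 3, Ppargc1a had 2.18 and Ppargc1b -2.05. Ppargc1b had 6.99, 9.58 and 2.80 CPM in J7_MLKL, 41.3, 40.2 and 41.3 CPM in J7_RIPK3, and 36.4, 33.6 and 37.3 CPM in J7_CTL, so that the J7_MLKL libraries were all well below the other differentiated groups and library 3, which was highest for most members, was the lowest.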

How the data were processed

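Total RNA of 18 libraries was measured by RNA sequencing (column-kit extraction and standard Illumina library preparation, per the labels' protocols). The submitters' processing notes name the build mm10 and, as tools, DESeq2, featureCounts 1.5.0-p3, HISAT2 and FastQC 0.11.9; strandedness and the handling of reads that map to several places are not given in the sources used here. The 7 deposited comparison tables used here hold the raw read count of each gene per library, as the authors' columns give it. A normalised count (signal) by the authors, obtained with a size factor for each library, stands beside it. FPKM, deposited by the authors, relates the count to gene length and depth. The authors' deposited log2 fold change, p-value and adjusted p-value follow, and the other deposited columns give gene length and position. A table lists a gene only where the authors' adjusted p was under 0.05. The 14 pathway and ontology tables were not used, and 0 sample columns belonged to other series.

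Counts were joined by gene identifier over the tables, and library totals were worked out from count, length and FPKM, since the listed genes hold 29.3 to 98.4% of a library's reads. Each comparison was fitted on all joined genes with counts in both groups by edgeR 4.0.16 (R 4.3.3; filterByExpr, TMM factors on recovered totals, quasi-likelihood F test, Benjamini-Hochberg over all genes tested), and the difference between 2 changes as an interaction. Genes with adjusted p under 0.05 were called higher or lower, so members were tested within the whole table. SE is the log2 fold change over the square root of F. The procedure was tested on simulated counts. DESeq2 1.42.0, other scalings and filters, left-out libraries, a replicate block and grouping by the genotype characteristic were alternatives. The replicate numbers did not pair the libraries.

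The members, gene lists, named genes and alternatives were chosen with earlier results of these data known. Named genes are core subunits, isoform sets, the highest and lowest member per complex, members against the majority, and the highest and lowest of each companion list. Atpif1, Cox6b2 and Cox8c were not used here, and 1 gene enters the counts and medians but is not reported on its own. Transcript lengths and exon overlaps come from GENCODE M39, promoters from RefSeq on GRCm38.p6.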

Additional observations from a re-analysis of the deposited data

Results flagged for a closer look

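A test of the difference between the differentiation change in knockout cells and that in control cells picked out 17 of the named members. In RIPK3-/- cells the log2 change exceeded that of control cells for the complex II genes Sdha by 0.34, Sdhb by 0.25 and Sdhc by 0.15, for the complex I genes Ndufs1 by 0.20, Ndufa12 by 0.75 and Ndufaf6 by 0.52, and for Uqcr10 of complex III by 0.28. It also did for the complex IV genes Cox4i1 by 0.16, Cox6a1 by 0.45, Cox7a2 by 0.22 and Cox8a by 0.22, and for the complex V genes Atp5a1 by 0.52 and Atp5b by 0.15. It was lower than in control cells for Cox5a (difference -0.19), Ndufa4 (-0.14) and Atp5g1 (-0.44). Single libraries decided some of these calls. Cox5a lost it without J7_RIPK3 3 (adjusted p = 0.0616) or J0_RIPK3 1, Ndufaf6 without J0_RIPK3 1 or J0_CTL 3, and Cox7a2 without J7_CTL 3 or J0_CTL 1. Ndufa4 lost it without J7_RIPK3 3 (adjusted p = 0.0634), J0_RIPK3 2, J7_CTL 2, J0_CTL 2 or J0_CTL 3, Sdhc without J7_RIPK3 1 or 2, J0_RIPK3 1 or 3, J7_CTL 1 or J0_CTL 1, and Cox4i1 without any 1 of 8 of the 12 libraries. The Ndufa12 value was 0.34 (adjusted p = 0.0492) without J7_RIPK3 3. In MLKL-/- cells the change of Ndufaf4 was smaller than in control cells, with a difference of -0.80. With groups of 3 libraries, outlying single libraries were not tested.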

How the results depend on the processing

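Of 380 recomputed counts and summed ratios, 343 stayed within 1.5 times, or 1 SD, of the value given and 37 moved. The counts in this section are given without shares over all genes, so they show how calls moved and are no result about the members. Grouping the J7 knockouts by the genotype characteristic reversed 12 named values. In this grouping the RIPK3-/- fits use the J7_MLKL libraries. At most 28 members had the counts for those fits, and all but Ndufa4l2 were listed by the authors as lower in J7_MLKL than in J7_CTL. Atp5a1 in J7_RIPK3 against J0_RIPK3 became -0.20. The RIPK3-/- change minus the control change became -1.41 for Atp5a1, -1.26 for Atp5b, -0.74 for Atp5c1, -1.24 for Atp5g3, -1.31 for Cyc1, -0.23 for Ndufaf6, -1.56 for Ndufs1, -0.90 for Sdha, -1.02 for Sdhb and -1.51 for Uqcrfs1, and the MLKL-/- difference of Ndufaf4 became 0.47. In the same grouping 7 members rose and 0 fell in J7_RIPK3 against J0_RIPK3, 4 rose in J7_MLKL against J0_MLKL, the RIPK3-/- difference was above 0 for 0 and below for 22, and the MLKL-/- difference was above 0 for 1 and below for 4. With an absolute log2 fold change over 0.5 also required, 1 member fell in J7_CTL against J0_CTL, 0 were higher and 1 lower in J0_RIPK3 against J0_CTL, 0 were lower in J0_MLKL against J0_CTL, 4 were higher and 3 lower in J7_RIPK3 against J7_CTL, and the RIPK3-/- difference was above 0 for 3 and below for 0. With a mean of at least 50 counts, 0 fell in J7_RIPK3 against J0_RIPK3, and with no filter 2 were lower in J0_MLKL against J0_CTL. The RIPK3-/- difference was above 0 for 23 members with total reads and below 0 for 1 with DESeq2's size factors or its Wald test. The MLKL-/- difference was below 0 for 2 members with the 50-count filter, with DESeq2's size factors or its Wald test, and without J7_MLKL 3 and J0_MLKL 2 together, an alternative chosen after seeing the data. DESeq2's size factors moved the all-gene median of that difference by -0.31, and total reads moved it by -0.10 in J7_MLKL against J7_CTL and by -0.17 against J7_RIPK3.

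Leaving out 1 library at a time, members that rose numbered 79 to 80 in J7_CTL against J0_CTL and 79 to 81 in J7_RIPK3 against J0_RIPK3. In J7_RIPK3 against J7_CTL, 33 to 61 were higher and 5 to 8 lower, and in J0_RIPK3 against J0_CTL 14 to 16 higher and 9 to 18 lower. Lower members numbered 17 to 29 in J7_MLKL against J7_CTL, 15 to 27 in J7_MLKL against J7_RIPK3 and 0 to 2 in J0_MLKL against J0_CTL. The RIPK3-/- difference was above 0 for 25 to 47 and below for 1 to 4, and the MLKL-/- difference below 0 for 1 to 2. Summed from the authors' FPKM, the J7_CTL over J0_CTL ratio was 2.15 for complex I, 2.36 for II, 3.25 for III and 2.75 for V, and the J7_RIPK3 over J0_RIPK3 ratio 2.27 for I and 3.54 for III. The causes were not tested. With the replicate number as a block, 51 members were higher and 5 lower in J7_RIPK3 against J7_CTL, 28 lower in J7_MLKL against J7_CTL, 25 lower against J7_RIPK3 and 37 above 0 in the RIPK3-/- difference. Same-numbered libraries correlated at -0.762 to 0.570 over the comparisons and share only a number, though in J7_CTL against J0_CTL all 3 correlated best with their own (0.0158 to 0.0356). The authors' size factors were not run where no deposited table gives them. Counts in J7_MLKL limit the description to 29 members.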
